A study of Homo sapiens with 8 samples.

Results

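Peaks of p53 chromatin immunoprecipitation with sequencing (ChIP-seq) that lay beside the centromeres were described in 13 windows on 11 human chromosomes. The windows were given by position, on build hg19, and were chosen with earlier results of these data known. A peak was a member when it overlapped a window. Together the windows span 39 Mb, and they held 1485 of the 97582 peaks called in 4 ChIP libraries. Dox replicates 1 and 2 gave 476 and 285 of these members, and PBS replicates 1 and 2 gave 281 and 443. The rest of the same 11 chromosomes, from the first to the last peak of any list and less the windows, is called the arms here. It spans 1305.74 Mb, any assembly gaps between these ends included, and held 56923 peaks.

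The cells were 293T, derived from human embryonic kidney, which express the large T antigen of simian virus 40, itself a p53-binding protein. The Dox cells received 0.5 µg/ml doxorubicin, a topoisomerase poison that breaks DNA, for 24 h, and the PBS cells received 20 µl of the phosphate-buffered saline vehicle for 24 h. Each condition had 2 ChIP libraries made with the same p53 antibody, clone 1C12. Replicate number 1 was at passage 3 and number 2 at passage 5 for Dox and PBS alike, so an effect of the number cannot be told apart from one of passage. The sources used here do not say whether libraries that share a number also shared a culture, and p-values therefore measure the spread between these samples. The 4 input samples were not analysed here. Peaks numbered 46658 and 16642 in the Dox lists and 11304 and 22978 in the PBS lists, replicate 1 before 2, and Dox replicate 1 thus had the longest list. Sequencing depth is not in the lists.

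p53 is a transcription factor that is stabilised after DNA damage and binds paired half-sites in promoters and enhancers. The sequence that flanks human centromeres is rich in satellite repeats, short units repeated in tandem, and in segmental duplications, long blocks present in near-identical copies. Reads from such repeats can be placed at one copy of the assembly although they came from many, and hg19 leaves much of the satellite sequence out as gaps. Regions of this kind are known for high read counts in ChIP-seq of many proteins and in input DNA. Peaks called in these windows are therefore not taken here as evidence of p53 binding. No genome sequence or annotation of hg19 was used here, so sites are given by position, no gene is named and motifs were not searched.

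The members were concentrated in 3 windows. The chromosome 21 window (9.4 to 15 Mb) held 395 peaks, the chromosome 4 window (48.9 to 49.7 Mb) held 354 and the first chromosome 2 window (89.5 to 92.4 Mb) held 271. These were 26.6%, 23.8% and 18.2% of all members. The other windows ran down to 5 peaks on chromosome 19 (24.0 to 28.5 Mb) and 7 in the second chromosome 16 window (46.3 to 46.6 Mb).

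The chromosome 4 window was the densest. It held 96 and 80 peaks in Dox replicates 1 and 2, and 76 and 102 in PBS replicates 1 and 2. This is 120 and 100 peaks per Mb in Dox and 95 and 127.5 in PBS. The arms of chromosome 4 held 5.47, 1.95, 1.48 and 3.07 peaks per Mb in the same libraries. The window was thus 21.9, 51.3, 64.1 and 41.6 times as dense as its own arms, and the counts of the 4 libraries lay close together although the lists differ in length. The 500 kb before the window held 3 peaks over the 4 libraries, and the 500 kb after it held 0. Positions of assembly gaps were not used here. A flank count of 0, here and below, therefore does not tell sequence without peaks from sequence that hg19 leaves out.

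The first chromosome 2 window held 87, 50, 52 and 82 peaks in the same library order, or 30.0, 17.2, 17.9 and 28.3 per Mb, against 9.59, 3.28, 2.28 and 4.76 per Mb in the chromosome 2 arms. The ratios were 3.13, 5.25, 7.86 and 5.94, above 1 in each library. Its flanks held 1 peak in the 500 kb before and 0 in the 500 kb after, with the same limit on the 0. The second chromosome 2 window (95.3 to 96.0 Mb) held 18, 5, 2 and 4 peaks, and its ratios of 2.68, 2.17, 1.25 and 1.20 rest on these small counts. Its flanks held 0 peaks before and 18 after.

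Chromosome 21 differed between libraries. Its window held 112, 74, 77 and 132 peaks, which was 0.791 times the density of its arms in Dox replicate 1 but 1.53, 2.23 and 2.28 times in the other libraries. Chromosome 10 (38.5 to 43.0 Mb), with 32, 24, 21 and 32 peaks, had ratios of 0.491, 1.11, 1.52 and 1.05, also on both sides of 1. Both windows hold a stretch without a peak, 3.34 Mb on chromosome 21 and 3.23 Mb on chromosome 10. It counts as window length and lowers these ratios, and ratios of single windows without such stretches were not computed.

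In 6 windows the density over the full window length was below that of the arms in all 4 libraries. These were chromosomes 7, 17, 19, 20 and 22 and the first chromosome 16 window. Stretches without a peak of 3.15, 3.00, 3.67 and 3.33 Mb between peaks on chromosomes 7, 17, 19 and 20 count as length here. So does the empty end of the first chromosome 16 window, whose last peak ended at position 34195126 although the window runs to 35.3 Mb. The ratios depend on this, and whether the density was lower in the remaining sequence was not tested. On chromosome 17 (21.5 to 25.9 Mb) the counts were 17, 17, 15 and 19 peaks and the ratios 0.0931, 0.288, 0.372 and 0.244. On chromosome 22 (16 to 17.5 Mb) they were 26, 4, 6 and 6 peaks and 0.246, 0.115, 0.281 and 0.146. The flank counts before and after were unequal in each of these 6 windows, by few peaks on chromosomes 7 and 19. A side with 0 can be sequence that hg19 leaves out, which was not tested, so the imbalance is not taken as a trait of the peaks. Over the 4 libraries, the 500 kb before the first chromosome 16 window held 144 peaks and the 500 kb after it 0. The counts before and after were 101 and 2 on chromosome 17, 24 and 72 on chromosome 20, and 0 and 60 on chromosome 22. They were 2 and 0 on chromosome 7 and 1 and 2 on chromosome 19.

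**Figure D1:**
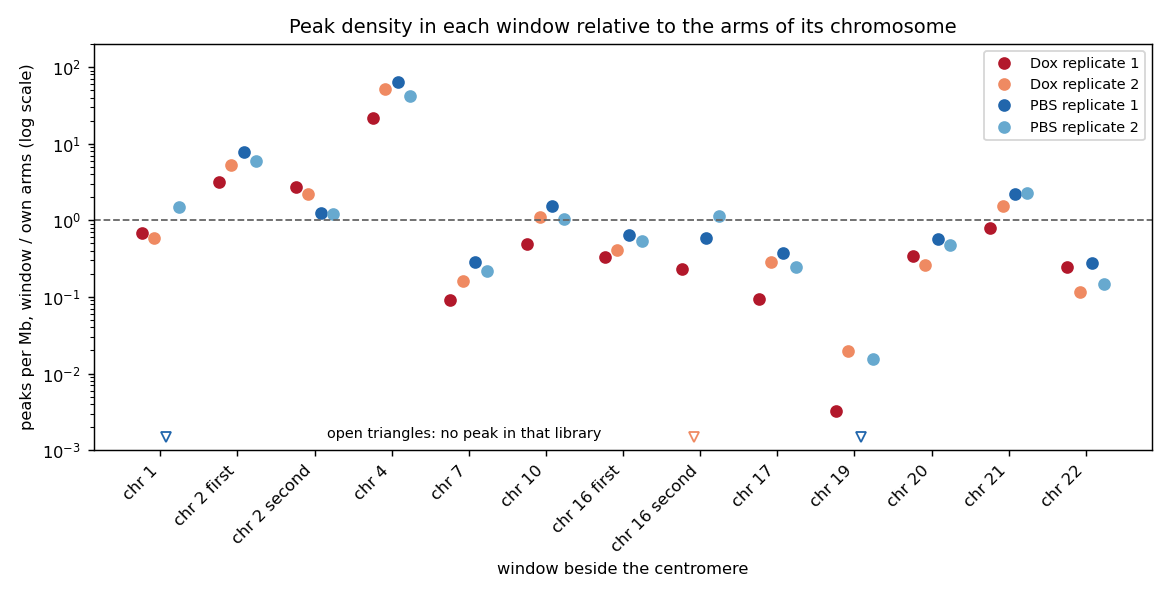
Peaks per Mb in each window divided by peaks per Mb in the arms of the same chromosome, on a log axis. There is 1 point per library, the dashed line is at 1, and stretches without a peak count as window length. All 4 points lie above the line on chromosome 4 and in both chromosome 2 windows, and all 4 lie below it on chromosomes 7, 17, 19, 20 and 22 and in the first chromosome 16 window. Libraries with no peak in a window are drawn as open triangles at the bottom.

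Pooled over all windows, the density was below that of the arms in both Dox libraries and above it in both PBS libraries. The windows held 12.2, 7.31, 7.21 and 11.4 peaks per Mb in Dox replicates 1 and 2 and PBS replicates 1 and 2, against 21.2, 7.48, 5.03 and 9.91 per Mb in the arms. The mean log2 ratio was -0.03 ± 0.56 (SD, n = 4), with p = 0.875 in a two-sided exact sign-flip test over the 4 libraries, which cannot go below 0.13. This value rests on what is counted as sequence, on the list lengths and on chromosome 4. Long stretches without a peak, 3.00 to 3.67 Mb, lie inside the windows of chromosomes 7, 10, 17, 19, 20 and 21. Counting only the 100 kb bins that hold a peak, 115 in the windows and 7659 in the arms, the ratios were 1.15, 1.94, 2.85 and 2.28, above 1 in 4 of 4 libraries (mean log2 0.96, exact p = 0.13). With every list cut to the 11304 peaks of smallest p, the length of the shortest, they were 1.14, 1.04, 1.43 and 1.5 over the full window length. Without the chromosome 4 window they were 0.417, 0.637, 0.953 and 0.805, below 1 in 4 of 4 (mean log2 -0.57, exact p = 0.13).

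Within the windows the peaks stood in short runs. The densest 100 kb, chr4:49100001-49200000, held 35, 26, 27 and 38 peaks in the 4 libraries, or 126 in all. On chromosome 21, chr21:10800001-10900000 held 124 peaks over the 4 libraries, and chr21:10700001-10800000 beside it 72. On chromosome 10, chr10:42300001-42400000 held 17, 18, 15 and 21 peaks, 65.1% of that window's members. Of the occupied bins, 17 of 115 in the windows (14.8%) and 680 of 7659 in the arms (8.88%) held at least 20 peaks. The highest bin of the arms held 155 peaks, so runs as dense as those on chromosomes 4 and 21 also occurred outside the windows.

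The distance from a peak to its nearest neighbour in the same list showed the same crowding. Its median was 1290, 1385, 1210 and 1224 bp in the windows and 3184, 8656, 13928 and 7436 bp in the arms. A neighbour within 2 kb was present for 62.8%, 60.4%, 67.6% and 65.9% of window peaks, against 40.8%, 32.1%, 30.1% and 33.8% of arm peaks. The arm distances follow the length of the list, shortest in Dox replicate 1 and longest in PBS replicate 1, whereas the window distances were nearly the same in all 4 libraries.

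**Figure D2:**
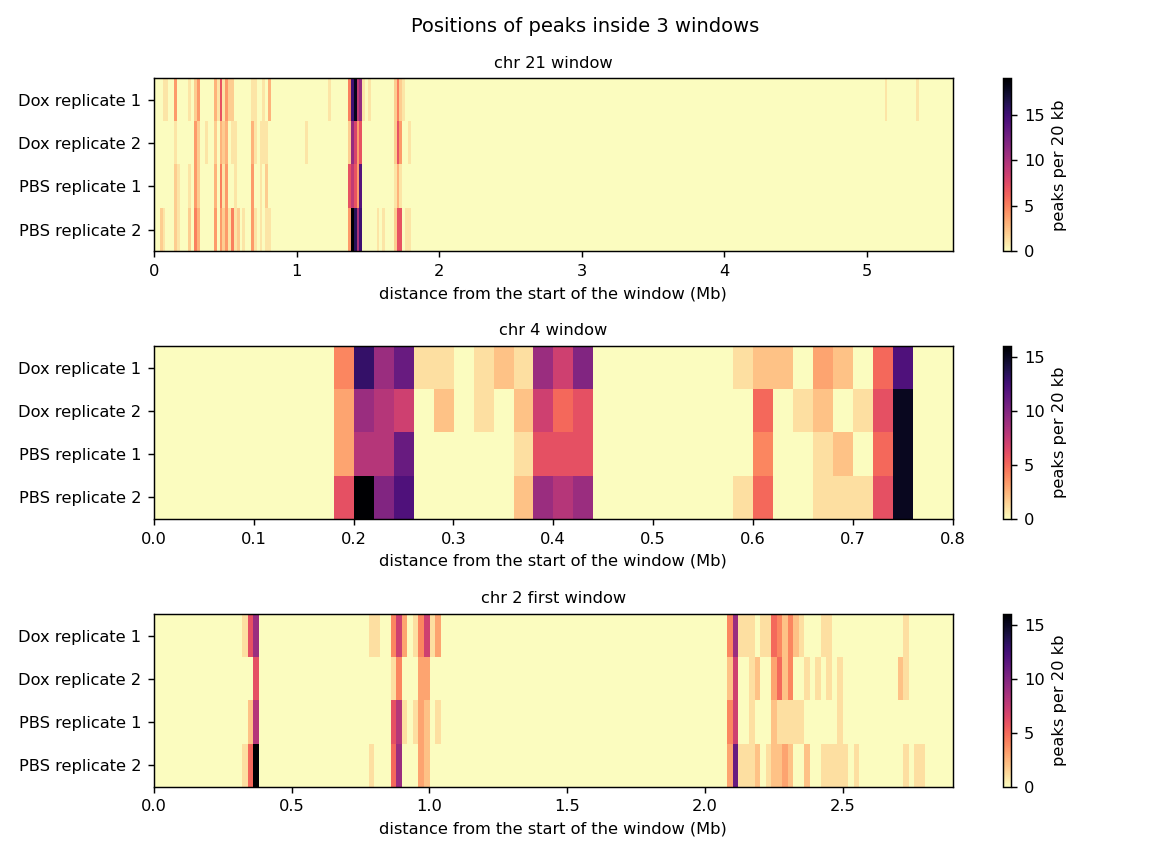
Number of peaks per 20 kb along the chromosome 4, chromosome 21 and first chromosome 2 windows, as distance from the window start in Mb, with 1 row per library and Dox above PBS. The same runs of peaks appear in the rows of all 4 libraries, and the right-hand part of the chromosome 21 window is nearly empty.

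The fold enrichment of a peak, the authors' ratio of the signal at its summit to the caller's local background, lay on both sides of that in the arms. Median folds were 2.65, 2.62, 2.64 and 2.72 in the windows, against 2.47, 2.78, 2.64 and 2.88 in the arms. The mean difference was -0.036 ± 0.159 (SD, n = 4; two-sided exact sign-flip test, p = 1.0). The highest folds in the windows were 8.69, 7.24, 7.06 and 11.4. Of the 100 peaks of lowest p in a list, 4, 2, 3 and 6 lay in the windows. Over the whole lists the windows held 1.02%, 1.71%, 2.49% and 1.93% of the peaks.

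The q-value, the p-value adjusted by the caller over the list, gave another picture. A q of at most 0.05 was reached by 73 of 476 and 51 of 285 window peaks in Dox replicates 1 and 2, and by 23 of 281 and 108 of 443 in PBS replicates 1 and 2. These are 15.3%, 17.9%, 8.19% and 24.4% of window peaks, beside 3.65%, 4.84%, 2.56% and 5.84% of the whole lists. In the arms the shares were 3.71%, 4.75%, 2.68% and 5.76%. The windows were thus higher by 11.6, 13.1, 5.50 and 18.6 percentage points, on average 12.2 ± 5.39 (SD, n = 4), in 4 of 4 libraries. The two-sided exact sign-flip test gave p = 0.13, the smallest it allows. The Wilson 95% intervals of the window shares, which cover counting error only, were 12.4% to 18.8%, 13.9% to 22.8%, 5.52% to 12.0% and 20.6% to 28.6%, each above the arm share of its library.

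The windows contributed unequally to this difference. On chromosome 4 the share with q of at most 0.05 was 33.3%, 25.0%, 15.8% and 44.1% of peaks, or 109 peaks over the 4 libraries. On chromosome 10 it was 15.6%, 16.7%, 9.52% and 43.8%, and in the first chromosome 2 window 18.4%, 16%, 3.85% and 25.6%. On chromosome 21, which had the most peaks, it was 5.36%, 8.11%, 5.19% and 8.33%, nearer to the whole lists. No peak of the chromosome 7 and 22 windows, 28 and 42 peaks over the 4 libraries, reached it. Without chromosome 4 the shares over the other windows were 10.8%, 15.1%, 5.37% and 18.5%, against 3.65%, 4.66%, 2.66% and 5.80% in the arms of their chromosomes, still higher in 4 of 4 libraries.

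**Figure D3:**
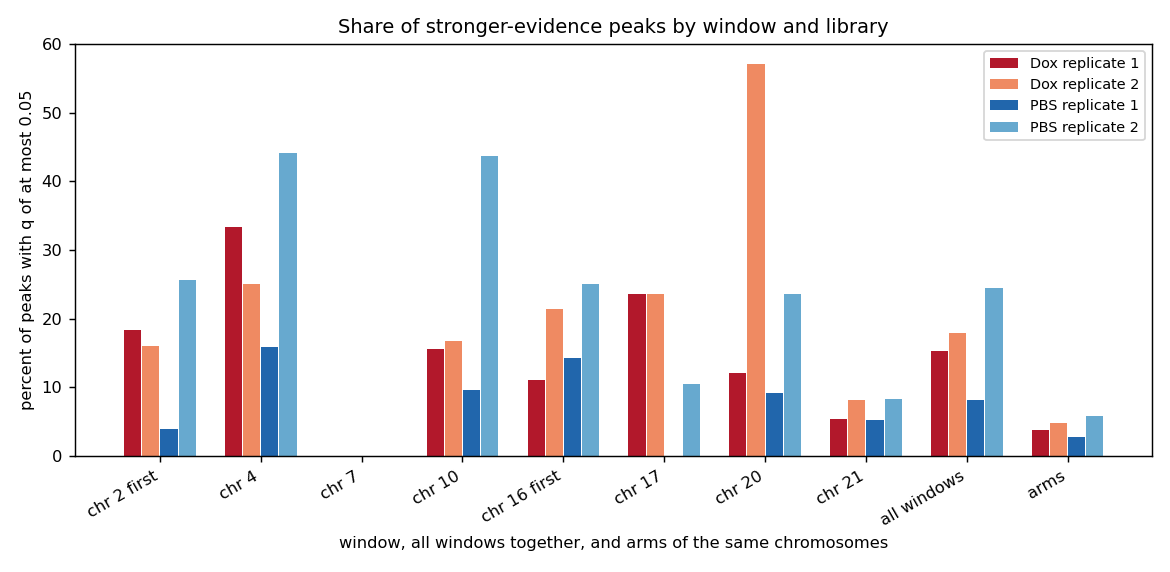
Percent of peaks with q of at most 0.05, by library, in the 8 windows with at least 5 peaks in every library, in all 13 windows together and in the arms of the same chromosomes. The bars of the chromosome 4 window are above those of the arms in each library, at 15.8% to 44.1%, whereas the chromosome 7 window has no such peak. The 57.1% of Dox replicate 2 on chromosome 20 is 4 of 7 peaks.

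Because the folds did not differ in 1 direction and the q-values did, the caller's p-value was compared at matched fold. This comparison was added after the data were seen. Peaks were put into 5 classes of fold, and the median −log10 p of window peaks was set against that of arm peaks in each library. The window median was higher in 4 of 4 libraries in each class. At a fold of 3 to 4 it was 3.72, 4.06, 3.75 and 4.08 in the windows, against 3.39, 3.21, 3.23 and 3.33 in the arms. The mean differences were 0.369 ± 0.0901 at a fold of 1 to 2, 0.440 ± 0.236 at 2 to 2.5, 0.383 ± 0.147 at 2.5 to 3, 0.615 ± 0.234 at 3 to 4 and 1.40 ± 0.985 at 4 to 6 (SD, n = 4 libraries). Each had p = 0.13 in the two-sided exact sign-flip test, the smallest possible, and 0.13 after Benjamini-Hochberg adjustment over the 5 classes.

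In this caller a given fold has a smaller p when more reads lie behind both the peak and its local background. The read counts are not in the lists, and whether they differed between windows and arms was not tested. The q-values differed in the same direction. At a fold of 3 to 4, 21%, 20.3%, 8.77% and 27.0% of window peaks had a q of at most 0.05, against 0.637%, 1.07%, 0.774% and 1.08% of arm peaks. Conversely, window peaks with q of at most 0.05 had lower folds than such arm peaks, with medians of 4.15, 3.67, 4.17 and 3.52 in the windows and 5.13, 4.94, 5.75 and 5.02 in the arms.

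**Figure D4:**
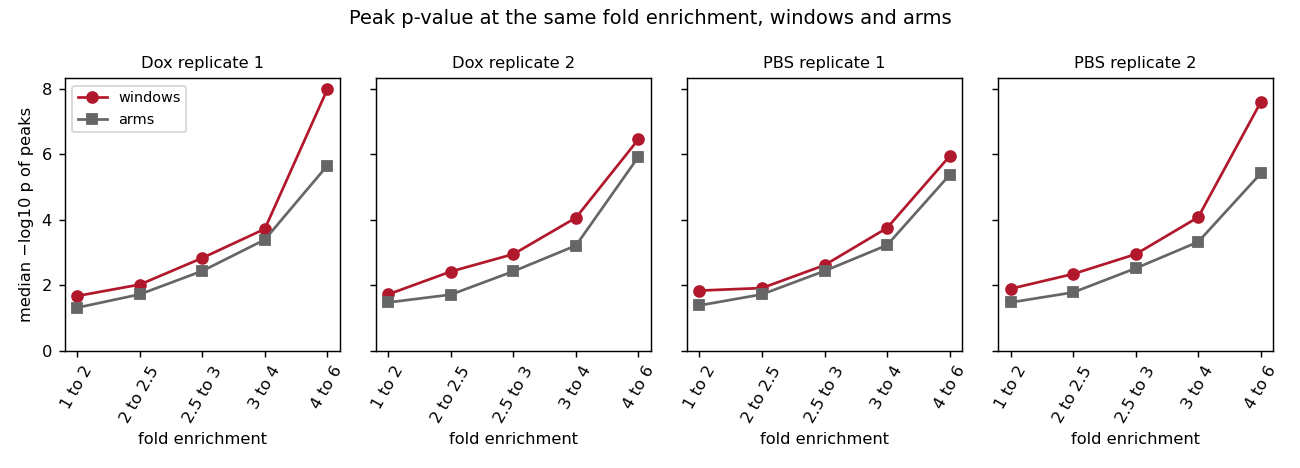
Median −log10 p of peaks in 5 classes of fold enrichment, 1 panel per library, for window peaks (circles) and arm peaks (squares). The window line lies above the arm line in each class and library, and the mean gap over the 4 libraries is largest at a fold of 4 to 6, at 1.40. In Dox replicate 2 the gap is larger at 3 to 4 (0.851) than at 4 to 6 (0.535).

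Peaks of the 4 lists that shared at least 1 bp were merged into sites, which gave 702 sites in the windows. Of these, 126 (17.9%, Wilson 95% interval 15.3% to 21%) had a peak in all 4 libraries, beside 6.01% of all 63890 sites. In the arms it was 2308 of 37009 sites (6.24%). The chromosome 4 window held 48 of its 116 sites in all 4 libraries (41.4%), chromosome 10 had 12 of 42 (28.6%), chromosome 17 had 7 of 26 (26.9%), chromosome 21 had 27 of 186 (14.5%) and the first chromosome 2 window 19 of 139 (13.7%). No site of the chromosome 1, 19 and 22 windows or the second chromosome 16 window was found in all 4 libraries. These windows held only 16, 3, 35 and 4 sites. PBS replicate 1 had no peak on chromosomes 1 and 19, nor Dox replicate 2 in that chromosome 16 window, so no such site was possible there. Without chromosome 4 the share over the windows was 13.3%. Sites found in Dox replicate 1 alone made up 26.8% of window sites (188) and 49.6% of arm sites.

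Taken pair by pair, a window peak of one library overlapped a peak of another more often than an arm peak did, in 12 of 12 ordered pairs of libraries. The shares ran from 37.2% to 79.6% in the windows and from 16.1% to 69.6% in the arms. Peaks of Dox replicate 2 were overlapped by PBS replicate 2 at 79.6% in the windows and 52.3% in the arms. The same Dox replicate 2 peaks were overlapped by Dox replicate 1 at 67.7% in the windows and 57.5% in the arms, and by PBS replicate 1 at 55.8% and 31.4%. These shares depend on the length of the overlapping list and, in the windows, on the close spacing of the peaks.

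The summits in the windows also lay closer together between libraries. Over the 81 window sites with exactly 1 peak in each of the 4 libraries, the median distance between the outermost summits was 49 bp, and it was at most 100 bp at 72.8% of them. Over 1533 such arm sites the median was 160 bp, with 33.8% at most 100 bp. This held at like fold. For sites with a mean fold under 3 the medians were 41 bp in the windows (n = 38) and 223 bp in the arms (n = 406). At a mean fold of 4 or more they were 49 bp (n = 17) and 79 bp (n = 338). The chromosome 4 window had a median of 29 bp over 32 sites, the first chromosome 2 window 70 bp over 15 and chromosome 21 119 bp over 14, and without chromosome 4 the windows had 68 bp over 49 sites. Sites of 1 window are not independent of each other, so these medians are a description.

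**Figure D5:**
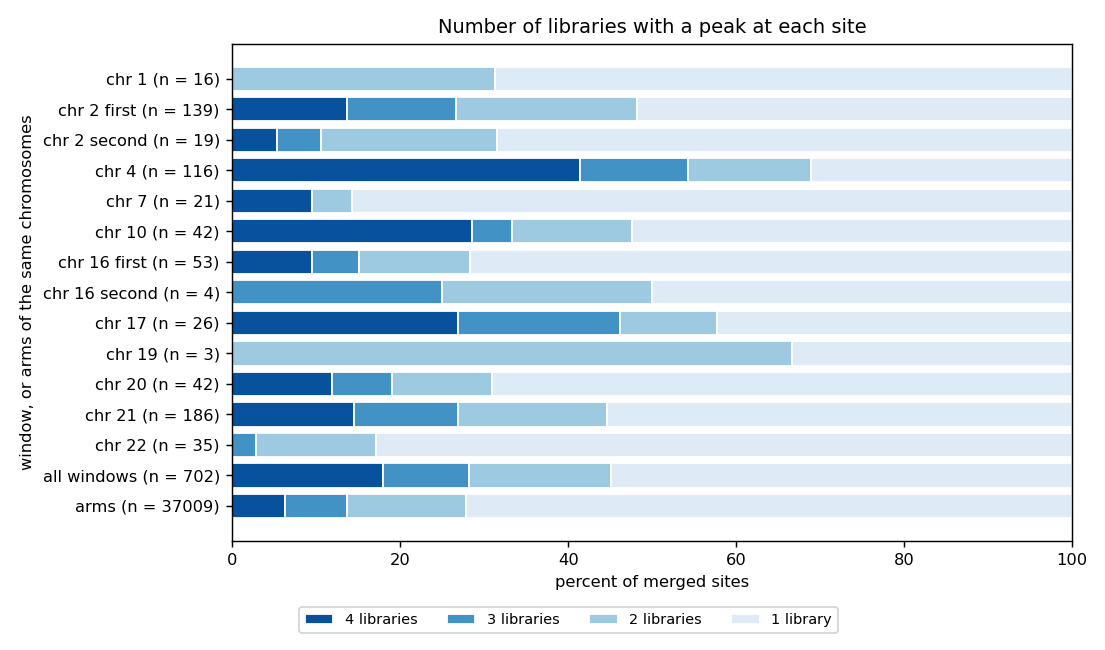
Percent of merged sites with a peak in 4, 3, 2 or 1 of the libraries, for each window, for all windows together and for the arms of the same chromosomes, with the number of sites in brackets. The chromosome 4 window has the largest dark segment, 41.4% in all 4 libraries, against 6.24% in the arms.

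The sites with the highest folds in all 4 libraries were spread over 6 windows. They are ranked by the mean percentile of their fold within the 4 lists. First was chr16:33238721-33241275, a run of 2555 bp with highest folds of 5.31 and 5.01 in Dox and 5.99 and 5.87 in PBS. It had q of at most 0.05 in each library, and a second site of the same window, chr16:33293736-33294488, was among the 10 leading sites as well.

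On chromosome 20, 2 leading sites lay close together. The folds at chr20:26189888-26190255 were 7.0 and 4.70 in Dox replicates 1 and 2 and 4.62 and 6.23 in PBS replicates 1 and 2. Those at chr20:26188734-26189234 were 3.78 and 5.89 in Dox and 3.69 and 11.4 in PBS, the last being the highest fold of a window peak in its list. The latter site did not reach a q of at most 0.05 in PBS replicate 1.

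On chromosome 4 the leading site was chr4:49324187-49324478, with folds of 4.69 and 7.24 in Dox replicates 1 and 2 and of 4.19 and 7.79 in PBS replicates 1 and 2. Its −log10 q reached 14.8 in Dox replicate 2 and 16.6 in PBS replicate 2. At chr4:49337357-49337681 the folds were 3.70 and 6.01 in Dox and 3.96 and 6.64 in PBS, with q of at most 0.05 in Dox replicate 2 and PBS replicate 2 only. Both sites were narrow, at 292 and 325 bp. Another site, chr4:49642542-49643523, had folds of 3.88 to 4.41 in the 4 libraries, and in PBS replicate 1 it did not reach a q of at most 0.05.

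On chromosome 21 chr21:9825442-9825727 had folds of 7.71 and 3.84 in Dox and 7.06 and 7.22 in PBS. On chromosome 10 chr10:42363307-42365041 had folds of 4.52 and 4.18 in Dox and 4.02 and 5.68 in PBS. On chromosome 2 chr2:90480947-90482509 had 5.39 and 3.67 in Dox and 4.50 and 4.22 in PBS, and in PBS replicate 1 it did not reach a q of at most 0.05. Folds are scaled by each library's own background, so they are set side by side here without a comparison between conditions.

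The leading sites of the remaining windows were not among these 10. Those of chromosome 17, chr17:21904050-21905246, of the second chromosome 2 window, chr2:95991374-95992182, and of chromosome 7, chr7:57696032-57696711, were found in all 4 libraries. Their highest folds were 4.83, 5.44 and 4.19 and their lowest 3.45, 2.76 and 2.41. The chromosome 7 site reached a q of at most 0.05 in no library. The chromosome 17 site reached it in Dox replicate 1 only, and the chromosome 2 site in Dox replicate 1 and PBS replicate 2 only. The leading site of chromosome 19, chr19:24614300-24614525, was found in Dox replicate 2 (fold 4.37) and PBS replicate 2 (4.67) only. That of chromosome 1, chr1:121405154-121405418, was likewise found in Dox replicate 2 (4.26) and PBS replicate 2 (3.32) only. Those of chromosome 22, chr22:16201235-16201682, and the second chromosome 16 window, chr16:46455494-46456063, had peaks in Dox replicate 1 and both PBS libraries, at folds of 2.03 to 2.92.

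Over all peaks the median width was 325, 323, 310 and 309 bp in the windows, against 286, 289, 284 and 283 bp in the arms. Among peaks with q of at most 0.05 the order was reversed in all 4 libraries, with medians of 440, 408, 355 and 437 bp in the windows and 676.5, 580, 615.5 and 571 bp in the arms. With lists of equal length it was reversed in Dox replicate 1, at 394 bp in the windows and 427 bp in the arms. Peaks of at least 1 kb made up 4.20%, 1.40%, 2.49% and 3.39% of window peaks and 2.47%, 2.11%, 1.80% and 2.19% of arm peaks, lower in the windows in Dox replicate 2. The longest site, chr10:42355047-42359159, spanned 4113 bp. It was split into 1 and 3 peaks in the Dox libraries and 4 and 2 in the PBS libraries, with highest folds of 5.86, 2.65, 3.87 and 3.34.

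Whether doxorubicin changed the share of peaks in the windows was compared between conditions. The windows held 1.02% and 1.71% of the Dox lists, against 2.49% and 1.93% of the PBS lists, replicate 1 before 2. Both Dox shares were below both PBS shares, with means of 1.37% ± 0.490 in Dox and 2.21% ± 0.395 in PBS (SD, n = 2 each). The difference was -0.841 percentage points, with p = 0.333 in a two-sided exact permutation test, the smallest that 2 libraries against 2 allow. It was -1.47 between the libraries of number 1 and -0.215 between those of number 2. The lowest share belonged to the longest list, Dox replicate 1, and the highest to the shortest, PBS replicate 1.

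With every list cut to its 11304 peaks of smallest p, the shares were 2.03% and 1.84% in Dox and 2.49% and 2.55% in PBS. The differences were then -0.460 between the libraries of number 1 and -0.708 between those of number 2, the same direction in both, and the test again gave its smallest p of 0.333. Among peaks with q of at most 0.05 the windows held 4.29% and 6.33% in Dox and 7.96% and 8.05% in PBS.

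By window, both Dox shares lay below both PBS shares in 6 of 13 windows (the first on chromosome 2, both on chromosome 16 and those of chromosomes 7, 20 and 21). They lay above both in 1, the second chromosome 2 window, and overlapped in 6. Among 1 Mb bins of the whole genome that hold a peak, 14.9% had both Dox shares below and 13.3% both above. With lists of equal length, 3 windows had both Dox shares below and 0 above, beside 11.7% and 9.38% of 1 Mb bins. These 3 were chromosome 4 with 73 and 65 peaks in Dox against 76 and 83 in PBS, chromosome 21 with 42 and 40 against 77 and 62, and the first chromosome 2 window with 47 and 35 against 52 and 58. Windows and bins differ in length and in peaks held, so the shares are not on the same footing. No test of a single window can go below 0.333.

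Few sites separated the conditions. In the windows, 10 sites (1.42%) had peaks in both Dox and neither PBS library, beside 3.11% of all sites and 3.24% of arm sites. Another 9 (1.28%) had peaks in both PBS and neither Dox library, beside 0.928% of all sites and 0.859% of arm sites. The leading Dox-only site, chr22:16245945-16246231, had folds of 3.06 and 3.11 in Dox, and the leading PBS-only site, chr21:10814273-10814635, had 2.73 and 3.39 in PBS. Of the 10 named, 5 of each kind, the only one with q of at most 0.05 in a library was the PBS-only site chr2:90371647-90371956, with folds of 3.53 in PBS replicate 1 and 1.99 in PBS replicate 2.

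In each condition the authors' deposited table of peak pairs matched between the replicates gave an irreproducible discovery rate (IDR) per pair, low where both lists rank the pair alike and high. In the authors' deposited table for Dox 113 of 168 window pairs (67.3%, Wilson 95% interval 59.8% to 73.9%) had an IDR of at most 0.05, beside 27.5% of all Dox pairs and 26.4% of arm pairs. In the authors' deposited table for PBS it was 53 of 183 window pairs (29.0%, 22.9% to 35.9%), beside 15.0% of all PBS pairs and 14.9% of arm pairs. By the authors' deposited tables the chromosome 4 window had 46 of 56 such pairs in Dox and 25 of 61 in PBS, and on chromosome 21 they were 19 of 37 and 7 of 45. The share was higher in Dox than in PBS over all pairs as well, and with 1 table per condition this difference has no test. The IDR ranks pairs by p, which at a given fold was smaller in the windows.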

How the data were processed

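The submitters' processing notes name BWA, MACS2 and build hg19. The sources used here give neither versions nor read filters. The authors deposited 1 peak list per ChIP library, whose peak names state a calling threshold of p under 0.05. Each deposited peak has a fold enrichment, a ratio ranked and tested here only within its own list, and a p-value and q-value as −log10. The authors also deposited 1 table of matched replicate pairs per condition, with −log10 p-values and, per the file headers, an IDR, which is a q-value.

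The windows, the sites to be named and the alternatives were chosen with earlier results of these data known. The sites named are the leading and longest of each window, the 10 with the highest mean fold percentile among those in all 4 libraries, and up to 5 exclusive to each condition. A peak was assigned by overlap of at least 1 bp. Pooled values were compared with exact permutation (Dox and PBS) or exact sign-flip tests (windows and arms), and shares carry 95% Wilson intervals for counting error, which treat peaks as independent. Peaks are not replicates, and depth is unknown. On simulated lists of equally wide peaks at well-separated sites, 3963 of 3963 planted sites were found, with 0 in a wrong window. Merging of peaks as crowded as those in the windows was not tested. Alternatives were equal list length, q of at most 0.05, a stricter overlap, other reference sequence, leaving out single windows or libraries and an IDR limit of 0.1. The tools were scipy 1.17.1, pandas 2.3.3, numpy 2.4.6 and, for plots, matplotlib 3.10.9, under Python 3.11.15.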

Additional observations from a re-analysis of the deposited data

Results flagged for a closer look

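The difference between Dox and PBS in the share of the list was compared between the 2 replicate numbers. Among windows with at least 5 peaks in every library, it had opposite signs in 3. On chromosome 4 it was -0.467 percentage points between the libraries of number 1 and 0.0368 between those of number 2. On chromosome 10 it was -0.117 and 0.00495, and on chromosome 17 -0.0963 and 0.0195, in the same order. The windows of chromosome 1 (0.0171 and -0.0255) and chromosome 22 (0.00265 and -0.00208), with fewer peaks in some libraries, had opposite signs too. With 1 library per condition and number, whether the difference depends on the number was not tested. With every list cut to the 11304 peaks of smallest p, the opposite signs on chromosomes 4, 10 and 17 were gone. The differences were then -0.0265 and -0.159 on chromosome 4, -0.0265 and -0.0265 on chromosome 10, and -0.0442 and 0 on chromosome 17. Other windows had opposite signs at that length. These were the first on chromosome 16 (0.0177 and -0.00885) and those of chromosomes 20 (0.00885 and -0.0619), 1 (0.0442 and -0.0619) and 22 (-0.0354 and 0.00885).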

How the results depend on the processing

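The difference between Dox and PBS in the share of the list kept its sign under every alternative run, at -0.494 to -1.19 percentage points when single libraries were left out, and no such test of 4 libraries can reach 0.05. The higher share of q of at most 0.05 in the windows kept its sign too, at 10.1 to 14.5 points without single libraries. The matched-fold differences kept theirs without chromosome 4, without chromosome 21 and without single libraries. The log2 density ratio of -0.03 changed sign with equal list length (0.34), with q of at most 0.05 (1.88), with occupied 100 kb bins (0.96) and against all sequence outside the windows (0.37). Leaving out single libraries gave -0.21 to 0.23, the highest without Dox replicate 1. The fold difference changed sign without the chromosome 21 window (0.0295), and leaving out single libraries gave -0.106 to 0.0069, positive without Dox replicate 2 and without PBS replicate 2 (0.0036). The cause of these changes was not tested.

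The share of sites in all libraries was 12.98% with q of at most 0.05 (8.92% in the arms), 13.3% without chromosome 4 (6.24%), and 21% to 25.5% with 3 libraries (7.88% to 12.98% in the arms; without Dox replicate 1, 25.5% and 12.98%). Dox-only sites numbered 2 and PBS-only sites 1 of 131 with q of at most 0.05. With equal list length they were 7 and 15 of 454, and without chromosome 21 they were 9 and 5 of 516. Without single libraries the counts ran from 14 to 200 and from 20 to 132, of 548 to 676 sites, since fewer libraries define the pattern. The matching shares of all sites at these settings are not given here, so these counts are not read as a result about the windows. With an IDR limit of 0.1 the window shares were 76.8% in Dox and 36.1% in PBS (all pairs 36.4% and 21.8%, arms 35.1% and 22.4%). At the limit of 0.05 and without chromosome 4 they were 59.8% in Dox and 23.0% in PBS (arms 26.4% and 14.9%). With the replicate number as a block, the share differed by -0.841 points with p = 0.5 in the exact sign-flip test over 2 pairs, the smallest possible, and 2 pairs allow no check of the pairing. The labels tie the number to the passage and to nothing else. Read depth is unknown, so the lists cannot show what depth limits.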
